A study of Homo sapiens with 12 samples.

Results

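The IFITM genes encode the interferon-induced transmembrane proteins, and 3 of them, IFITM1, IFITM2 and IFITM3, are described here in a human pancreatic cancer line kept in low or high glutamine with or without gemcitabine. They were chosen by symbol, 3 of the 15090 genes listed in the deposited table, after IFITM1 had been seen to be lower in comparisons where other interferon genes rose. Its levels and fold changes are therefore given as a description, without a test. All 3 passed the filter on low values, and tests by limma, a linear model that steadies each gene's variance with that of all others, are given for IFITM2, IFITM3 and their sum.

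MIA PaCa-2 is an established line from an undifferentiated pancreatic carcinoma, labelled wild type. Every culture stood for 48 h in glutamine-free RPMI 1640 to which L-glutamine had been returned, so that no group lacked glutamine. The groups, of 3 libraries each, were 40 mM L-glutamine with 0.5 µM gemcitabine, 2 mM with 0.5 µM gemcitabine, 40 mM without the drug and 2 mM without it. Gemcitabine is a deoxycytidine analogue that blocks DNA synthesis. The series calls the libraries of a group biological triplicates, and all come from 1 cell line.

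IFITM proteins are small membrane proteins that hinder the fusion of enveloped viruses with host membranes. IFITM1 sits mainly at the plasma membrane, while IFITM2 and IFITM3 carry a longer amino terminus with an endocytic signal and reside mainly in endosomes and lysosomes. In the textbook pathway, interferon receptors signal through the kinases JAK1 and TYK2 to the factor ISGF3, which binds interferon-stimulated response elements (ISREs) in promoters of the IFITM genes and of many other antiviral genes. IFITM genes also have a basal level in many cells that no interferon has reached.

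The members are close copies, so reads can be shared among them. Over aligned coding bases, IFITM2 and IFITM3 were 93.98% identical, IFITM1 and IFITM3 87.61%, and IFITM1 and IFITM2 85.55%. The coding starts below, from GENCODE release 29 transcripts, are shown because the members differ most clearly there. Capitals mark bases that differ from IFITM3 in the alignment, and the IFITM1 start aligns from coding base 64 of IFITM3, since IFITM1 lacks the longer beginning.
IFITM1: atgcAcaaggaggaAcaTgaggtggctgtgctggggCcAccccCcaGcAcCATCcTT
IFITM2: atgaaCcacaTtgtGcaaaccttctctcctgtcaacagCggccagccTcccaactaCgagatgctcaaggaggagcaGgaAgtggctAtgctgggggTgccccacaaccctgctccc
IFITM3: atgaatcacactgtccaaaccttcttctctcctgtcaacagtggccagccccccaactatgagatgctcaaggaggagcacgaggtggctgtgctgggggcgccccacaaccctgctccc
The printed stretches are coding bases 1 to 57 of IFITM1, 1 to 117 of IFITM2 and 1 to 120 of IFITM3.

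Farther along the coding sequence IFITM1 and IFITM3 share an identical run of 141 bases. It is shown because a read that falls inside it does not tell its gene. Capitals mark the 99 bases that all 3 members share.
Shared run: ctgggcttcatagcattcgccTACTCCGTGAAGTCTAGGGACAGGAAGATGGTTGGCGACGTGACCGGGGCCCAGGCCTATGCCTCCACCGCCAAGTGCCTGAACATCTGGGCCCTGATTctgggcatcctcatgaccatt
In windows of 100 bases, 34.9% of the IFITM1 transcript occurred unchanged in an IFITM2 transcript and 5.56% in an IFITM3 transcript. At the same length no IFITM2 window occurred in IFITM1 or IFITM3. At 50 bases 8.2% of IFITM2 windows occurred in IFITM1, 8.36% in IFITM3 and 9.02% in genes outside the 3 members. The outside share at 50 bases was 1.24% for IFITM1 and 3.69% for IFITM3, and at 100 bases it was 0 for each member. The search set 1 RefSeq-matched transcript of the gene named first against all annotated transcripts of the other. In release 29 an alternative IFITM2 transcript makes the IFITM2 gene span cover the whole IFITM1 gene on the same strand. Antisense genes overlap IFITM2 and IFITM3. Read length, counting annotation and strandedness were not stated by the labels or file headers, and the split of reads among members is therefore uncertain. Sums over members are given beside the single genes for that reason. They cover neither reads left uncounted because they match several genes nor reads shared with genes outside the 3. The sum of IFITM2 and IFITM3 does not cover reads shared with IFITM1 either.

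**Figure D1:**
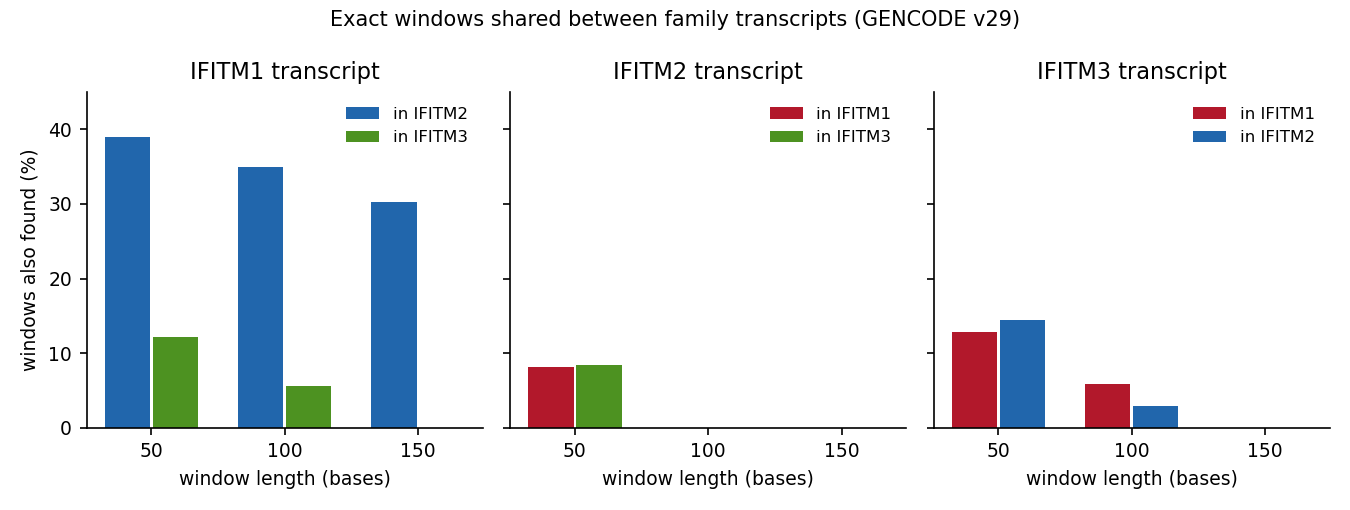
Percentage of windows of each member's transcript (y axis) that occur unchanged in a transcript of another member, for windows of 50, 100 and 150 bases (x axis), with 1 bar for each other member. IFITM1 stands apart through IFITM2, where 39% of its 50-base windows and 30.3% of its 150-base windows occur.

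The promoters of IFITM1 and IFITM3, from RefSeq on build GRCh38.p14, are shown for their ISRE cores. Each runs from 250 bases before the start site to 50 after it, and capitals mark matches to GAAA, any 2 bases and GAAA again on either strand. The IFITM1 window is chr11:313790-314089 on the plus strand and the IFITM3 window is chr11:320811-321110 on the minus strand.
IFITM1 promoter: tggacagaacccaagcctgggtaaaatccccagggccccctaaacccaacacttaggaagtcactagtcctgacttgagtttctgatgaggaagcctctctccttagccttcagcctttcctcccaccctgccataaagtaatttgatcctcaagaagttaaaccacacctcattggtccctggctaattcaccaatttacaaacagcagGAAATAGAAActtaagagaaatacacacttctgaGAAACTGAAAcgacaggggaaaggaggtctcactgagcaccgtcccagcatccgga
IFITM3 promoter: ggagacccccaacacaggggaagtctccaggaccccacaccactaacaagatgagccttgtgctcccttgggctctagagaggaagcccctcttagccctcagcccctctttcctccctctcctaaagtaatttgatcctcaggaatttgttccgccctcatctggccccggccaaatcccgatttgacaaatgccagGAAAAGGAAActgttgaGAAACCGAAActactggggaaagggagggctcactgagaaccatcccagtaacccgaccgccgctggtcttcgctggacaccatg
Both windows held 2 ISRE cores, and no window was available for IFITM2. The share of all 35116 RefSeq promoters with at least 1 core was 3.57%. Of 78 promoters of other interferon effector genes, a list described below, 56.4% had at least 1. A GAS motif, searched as TTCNNNGAA, matched once in the IFITM1 window, where it overlaps an ISRE core, and not in the IFITM3 window. A match was found in 7.66% of all promoters and in 21.8% of the effector promoters. A match of letters is a description and not a binding site.

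Read totals over listed genes lay between 21723094 and 32811746 per library. Levels are in reads per 1000000 (RPM) with the authors' scaling between libraries, whose factors ran from 0.979 to 1.03 and were highest in the 40 mM libraries with gemcitabine. Keratins KRT8, KRT18 and KRT19 and the mesenchymal genes VIM and S100A4 were abundant in every library, with KRT19 at 196 RPM or more, while EPCAM is not among the listed genes. Of 12 markers of leukocytes, endothelium, fibroblasts, acinar and islet cells, 9 were not listed and the other 3, all fibroblast markers, reached at most 15.6 RPM. In bulk RNA, fewer cells with a transcript and less transcript per cell cannot be told apart.

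IFITM1, the plasma membrane member, had its highest level at 2 mM glutamine without gemcitabine. Its levels were 86.5, 78.6 and 85.6 RPM at 40 mM with gemcitabine and 100.2, 101 and 97.5 RPM at 2 mM with gemcitabine. Without the drug they were 91.6, 92.6 and 81.0 RPM at 40 mM and 137, 126 and 131 RPM at 2 mM. The untreated 2 mM libraries stood above all 9 others, the 2 mM libraries with gemcitabine came next, and the 40 mM libraries with and without gemcitabine overlapped. These levels rest on 1899 to 3542 reads per library, where counting error is at most 2.295%.

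IFITM2, the endosomal member closest in sequence to IFITM3, was ordered by both conditions. It had 139, 130.3 and 133 RPM at 40 mM with gemcitabine and 165, 157.5 and 160.3 RPM at 2 mM with gemcitabine. Without the drug it had 149, 149 and 154 RPM at 40 mM and 188, 192 and 186 RPM at 2 mM. No library overlapped with another group, and the order from low to high was 40 mM with gemcitabine, 40 mM without, 2 mM with gemcitabine and 2 mM without.

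IFITM3, the member with the best known role against influenza virus, separated by glutamine but not by drug. It had 151, 167 and 159.7 RPM at 40 mM with gemcitabine and 182, 185 and 196.5 RPM at 2 mM with gemcitabine. Without the drug it had 174, 149 and 147 RPM at 40 mM and 191, 187 and 185 RPM at 2 mM. All 6 libraries at 40 mM lay below all 6 at 2 mM, and at each glutamine level the libraries with and without gemcitabine overlapped.

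**Figure D2:**
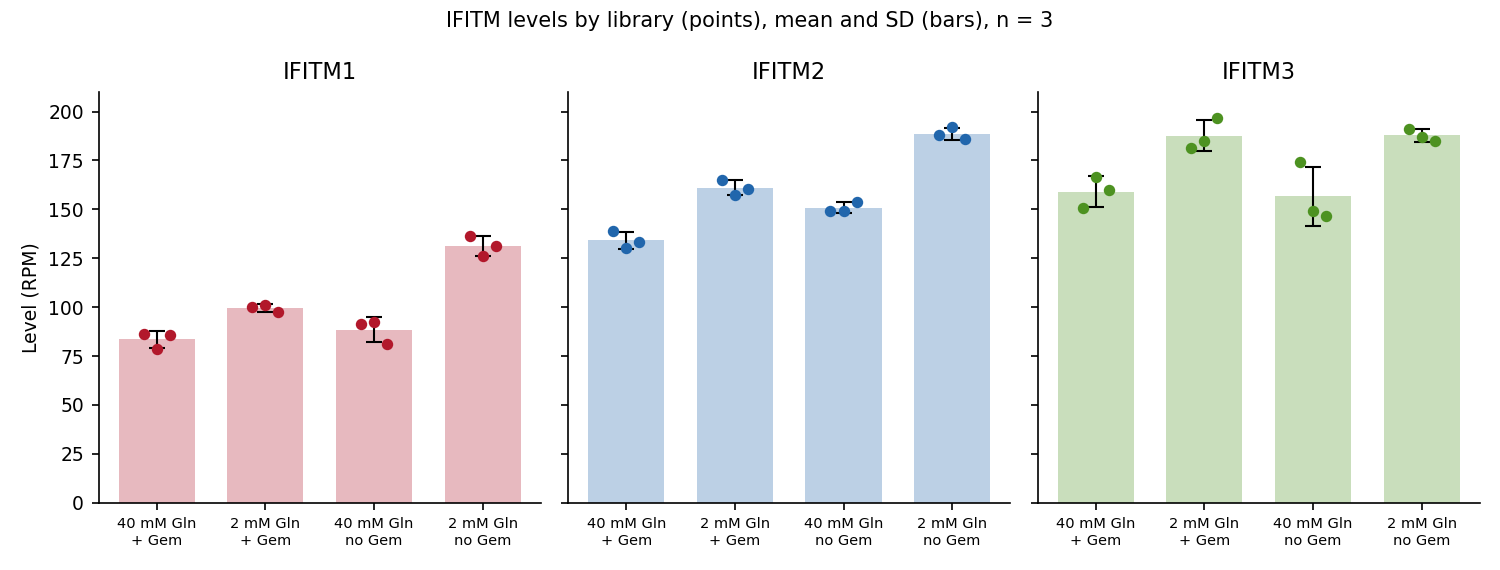
Level in RPM (y axis, from 0) of IFITM1, IFITM2 and IFITM3 in each library (points), with group mean and SD (bars, n = 3), for the 4 groups on the x axis. IFITM1 is high in the untreated 2 mM group alone at 131 ± 5.31 RPM, IFITM2 differs between all 4 groups, and IFITM3 differs between the glutamine levels.

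RefSeq-matched transcripts of 855, 659 and 808 bases were used for IFITM1, IFITM2 and IFITM3. Per kilobase of these, IFITM2 and IFITM3 were each above IFITM1 in every group. This order can depend on how reads of shared sequence were assigned, which is not known. At 50 bases 42.3% of IFITM1 windows occurred in another gene, against 15.7% of IFITM2 and 20.3% of IFITM3 windows. Mean levels at 40 mM with gemcitabine were 97.7 RPM per kilobase for IFITM1, 203.5 for IFITM2 and 197 for IFITM3, against 153.5, 286 and 232 RPM per kilobase at 2 mM without the drug. By mean RPM the members ranked at the 82.41, 89.99 and 90.99 percentiles of tested genes. Of the other listed family genes, IFITM5, known in bone, had at most 1.071 RPM and was not tested. IFITM10, a distant relative of unclear function, had 5.621 to 11.03 RPM. Of 11 relatives of the wider dispanin family that were looked for, 5 were listed and 4 tested, and IFITM10 was the 1 called in any comparison, with the drug at 40 mM.

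High glutamine without gemcitabine went with lower levels of all 3 members. IFITM1 averaged 88.4 ± 6.41 RPM at 40 mM, against 131 ± 5.31 RPM at 2 mM (mean ± SD, n = 3 per group), a log2 fold change of -0.57 ± 0.046 (SE), a change of -32.49%. IFITM2 averaged 151 ± 2.70 RPM at 40 mM and 189 ± 3.06 RPM at 2 mM, and it fell by 0.32 ± 0.034 on the log2 scale (limma, Benjamini-Hochberg adjusted p = 2.228e-08). IFITM3 averaged 157 ± 15.1 RPM at 40 mM and 188 ± 3.12 RPM at 2 mM, and it fell by 0.26 ± 0.045 on the log2 scale (limma, adjusted p = 7.417e-05). Thus both tested members fell, where 9.12% of the 12789 tested genes were called lower and 8.41% higher. The sum of IFITM2 and IFITM3, which no exchange of reads between them can change, fell by 0.29 ± 0.031 (limma, adjusted p = 1.936e-08).

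With gemcitabine present, high glutamine again went with lower levels of the members. IFITM1 averaged 83.6 ± 4.30 RPM at 40 mM and 99.6 ± 1.89 RPM at 2 mM, a log2 fold change of -0.25 ± 0.046. IFITM2 averaged 134 ± 4.24 RPM at 40 mM and 161 ± 3.81 RPM at 2 mM, and it fell by 0.26 ± 0.034 (limma, adjusted p = 9.599e-07). IFITM3 averaged 159.0 ± 8.03 RPM at 40 mM and 188 ± 7.83 RPM at 2 mM, and it fell by 0.24 ± 0.045 (limma, adjusted p = 0.0002223). In this comparison 13% of tested genes were called lower and 8.62% higher. The sum of IFITM2 and IFITM3 fell by 0.25 ± 0.031 (limma, adjusted p = 4.038e-07).

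At 2 mM glutamine IFITM2 fell with gemcitabine and IFITM3 did not pass the test. IFITM1 averaged 99.6 ± 1.89 RPM with the drug and 131 ± 5.31 RPM without it, a log2 fold change of -0.39 ± 0.046, a change of -23.92%. IFITM2 averaged 161 ± 3.81 RPM with the drug and 189 ± 3.06 RPM without it, and it fell by 0.23 ± 0.034 (limma, adjusted p = 3.035e-06). IFITM3 averaged 188 ± 7.83 RPM with the drug and 188 ± 3.12 RPM without it (limma, adjusted p = 0.9787). The 95% interval of its log2 fold change ran from -0.0946 to 0.0903. Here 17.1% of tested genes were called lower and 17.5% higher. The sum of IFITM2 and IFITM3 fell by 0.11 ± 0.031 (limma, adjusted p = 0.005594).

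At 40 mM glutamine IFITM2 was the member that passed the test for gemcitabine. IFITM1 averaged 83.6 ± 4.30 RPM with the drug and 88.4 ± 6.41 RPM without it, and its log2 fold change of -0.08 had a 95% interval of -0.173 to 0.015. IFITM2 averaged 134 ± 4.24 RPM with the drug and 151 ± 2.70 RPM without it, and it fell by 0.17 ± 0.034 (limma, adjusted p = 0.0002297). IFITM3 averaged 159.0 ± 8.03 RPM with the drug and 157 ± 15.1 RPM without it, with a 95% interval of its log2 fold change of -0.0687 to 0.116 (limma, adjusted p = 0.7393). In this comparison 16.2% of tested genes were called lower and 14.1% higher. The sum of IFITM2 and IFITM3 had a log2 fold change of -0.07 with an interval of -0.132 to -0.0054 and did not pass the adjusted test (limma, adjusted p = 0.0953). Without replicate 2 of the untreated 40 mM group that sum did pass, at -0.0895 (limma, adjusted p = 0.0409). IFITM10 fell by 0.32 (limma, adjusted p = 0.04275), a call that was lost without replicate 3 of either 40 mM group, at adjusted p values of 0.208 and 0.238. It was also lost with no filter on low values and with library totals alone, at 0.0558 and 0.0767.

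Set against the untreated 2 mM cultures, those with both 40 mM glutamine and gemcitabine had the lowest family total. IFITM1, IFITM2 and IFITM3 together averaged 377 ± 1.70 RPM in cultures with both and 508 ± 7.06 RPM in untreated 2 mM cultures. IFITM1 differed by -36.09%, with a log2 fold change of -0.65 ± 0.046. IFITM2 fell by 0.49 ± 0.034 (limma, adjusted p = 1.471e-13) and IFITM3 fell by 0.24 ± 0.045 (limma, adjusted p = 6.13e-05), where 21.2% of tested genes were called lower and 18.7% higher. The sum of all 3 members, which no exchange of reads inside the family can change, is described without a test. Its log2 fold change was -0.36 for glutamine without the drug, -0.25 for glutamine with the drug, -0.18 for the drug at 2 mM and -0.07 for the drug at 40 mM, each with an SE of 0.030. The last value was -0.03 with library totals alone and -0.037 with quantile normalization, and also -0.037 without replicate 1 of the untreated 40 mM group. Without that replicate the value for glutamine without the drug was -0.39. The value for glutamine with the drug was -0.196 with library totals alone and -0.174 with quantile normalization. For both together the sum changed by -0.43, and by -0.37 with either of these scalings.

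The interaction subtracts the gemcitabine effect at 2 mM from its effect at 40 mM. It was 0.32 ± 0.065 on the log2 scale for IFITM1. IFITM2 had an interaction of 0.06 with a 95% interval of -0.041 to 0.157 (limma, adjusted p = 0.6196). IFITM3 had an interaction of 0.03 with a 95% interval of -0.105 to 0.157 (limma, adjusted p = 0.8985). Neither of these passed, and 0.727% of tested genes were called higher and 1.47% lower.

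The number of calls in each direction depended on the scaling between libraries, while the members' directions in the comparisons called above did not. With library totals alone the higher share of all calls became 61.18% in place of 47.99% for glutamine without the drug, 68.19% in place of 39.86% for glutamine with the drug, and 62.88% in place of 46.64% for the drug at 40 mM. It became 65.8% in place of 46.86% for both together and 58.9% in place of 33.1% for the interaction. With quantile normalization it was 50.14% for glutamine with the drug and 54.72% for the interaction.

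Within the family, IFITM1 made up a smaller share of the summed RPM in 3 groups than in the untreated 2 mM group. The share averaged 22.18% ± 1.10 at 40 mM with gemcitabine, 22.23% ± 0.691 at 2 mM with gemcitabine, 22.32% ± 1.24 at 40 mM without the drug and 25.85% ± 0.806 at 2 mM without it (SD, n = 3 each). The first 3 groups spanned 20.93% to 23.66% and overlapped, and the untreated 2 mM group spanned 24.95% to 26.49%.

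The ratio of IFITM2 to IFITM3 was lower on average with the drug. The mean log2 ratio of IFITM2 to IFITM3 was -0.24 at 40 mM with gemcitabine, -0.22 at 2 mM with gemcitabine, -0.05 at 40 mM without the drug and 0.006 at 2 mM without it. At 40 mM the groups overlapped, from -0.354 to -0.119 with gemcitabine and from -0.222 to 0.070 without it. At 2 mM they did not, from -0.293 to -0.137 with gemcitabine and from -0.0258 to 0.0372 without it. Within glutamine levels the ratio was lower by a mean of -0.21 with gemcitabine than without (exact two-sided permutation test stratified by glutamine, p = 0.01, adjusted p = 0.02 over 2 tests). Between 40 mM and 2 mM, within drug levels, the mean difference was -0.04 (exact permutation test, p = 0.51, adjusted p = 0.51). The smallest p this design allows is 0.005. The ratio was chosen after the levels had been seen, so these p values are a description. Leaving out any 1 library gave drug differences of -0.253 to -0.181, and the adjusted exact p was 0.05 or 0.06 without replicate 2 or 3 of the 40 mM group with gemcitabine and without replicate 2 or 3 of the untreated 40 mM group.

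**Figure D3:**
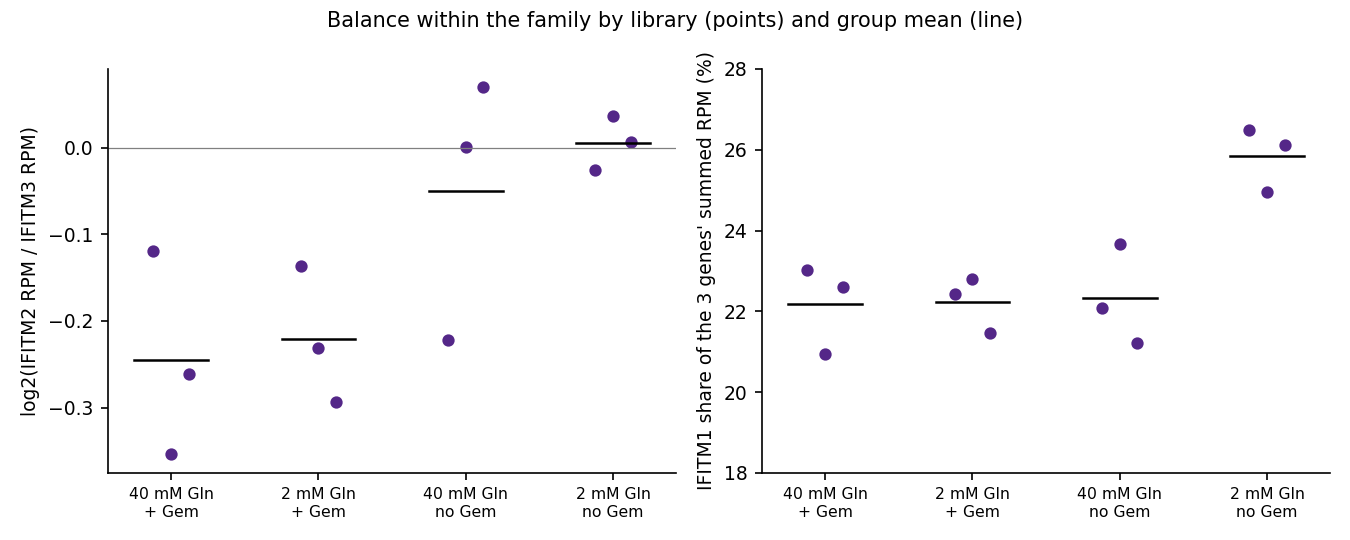
The log2 ratio of IFITM2 to IFITM3 and the IFITM1 share of the summed RPM in percent (y axes; the share axis starts at 18) in each library (points) with group means (lines) for the 4 groups on the x axis. The ratio lies at means of -0.24 and -0.22 with gemcitabine and near 0 without it, and the IFITM1 share stands out at 25.85% in the untreated 2 mM group.

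Most other antiviral genes of the interferon response that were tested rose with gemcitabine. Of 73 effectors looked for, which leave out the IFITM genes, 61 were listed and 58 tested. Gemcitabine raised 45 of the 58 at 2 mM glutamine and 45 at 40 mM. The 58 had median log2 fold changes of 0.53 and 0.73, against -0.0011 and -0.0054 over all tested genes. Of all tested genes 17.5% and 14.1% were called higher. Another 12 and 13 of the 58 did not pass. At 2 mM 1 fell and at 40 mM none fell by limma, none had an unadjusted p under 0.05 downward there, and voom weights on recovered reads also gave 0. DDX60, an RNA helicase of the antiviral response, averaged 65.7 RPM with the drug and 17.0 RPM without it at 40 mM, a log2 fold change of 1.91 ± 0.082 (limma, adjusted p = 3.798e-19). IFIT1, which binds foreign RNA caps, averaged 193 RPM with the drug and 78.7 RPM without it, a log2 fold change of 1.29 ± 0.042 (limma, adjusted p = 1.341e-22). The list was drawn up with results of these data known, so its counts are a description.

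Glutamine changed fewer of the same effectors by count. At 40 mM against 2 mM with gemcitabine 24 of 58 rose and 1 fell (median 0.19), and without gemcitabine 12 rose and 3 fell (median 0.057). With voom weights on recovered reads 26 rose and 1 fell with gemcitabine, and 8 rose and 4 fell without it. Of all tested genes 8.62% were called higher and 13% lower with the drug, and 8.41% and 9.12% without it. The 3 falls without the drug in the main fit were in BST2, which tethers budding viruses to the membrane, TRIM14 and the aminopeptidase LAP3. BST2 averaged 9.78 RPM at 40 mM and 12.98 RPM at 2 mM (log2 fold change -0.37 ± 0.090, limma, adjusted p = 0.00357). TRIM14, an adaptor in antiviral signalling, fell by 0.19 ± 0.045 (limma, adjusted p = 0.003809). Both rose with gemcitabine at both glutamine levels, BST2 by 0.55 and 0.87 and TRIM14 by 0.24 and 0.38 at 2 and 40 mM. LAP3 fell by 0.13 (limma, adjusted p = 0.03835), and it kept no call without replicate 2 or 3 of the untreated 2 mM group or without replicate 1 or 3 of the untreated 40 mM group, at adjusted p up to 0.214. With library totals alone it was not called either.

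IFITM1 was chosen for standing below other interferon genes, so its place among the effectors restates that choice. IFITM1 had a lower log2 fold change than each of the 58 in both glutamine comparisons, with the drug at 2 mM and with both together, and 2 effectors lay below it with the drug at 40 mM. No effector lay below IFITM2 in 4 of the 5 pairwise comparisons, and 1 did for glutamine without the drug. For IFITM3, 6 effectors lay below it with the drug at 2 mM and 7 at 40 mM, and among all tested genes it stood near the middle there, above 49.69% and 57.15%. In the interaction 46 of the 58 effectors lay below IFITM1. Among all tested genes the share below IFITM1 was 0.3988% for glutamine without the drug and 33.05% for the drug at 40 mM. MX2, a nuclear pore antiviral protein, was the effector that fell with the drug at 2 mM, by 0.22 ± 0.073 (limma, adjusted p = 0.01837). That call was lost without replicate 2 of the untreated 2 mM group or replicate 1 of the 2 mM group with gemcitabine, at adjusted p of 0.0523 and 0.0785.

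**Figure D4:**
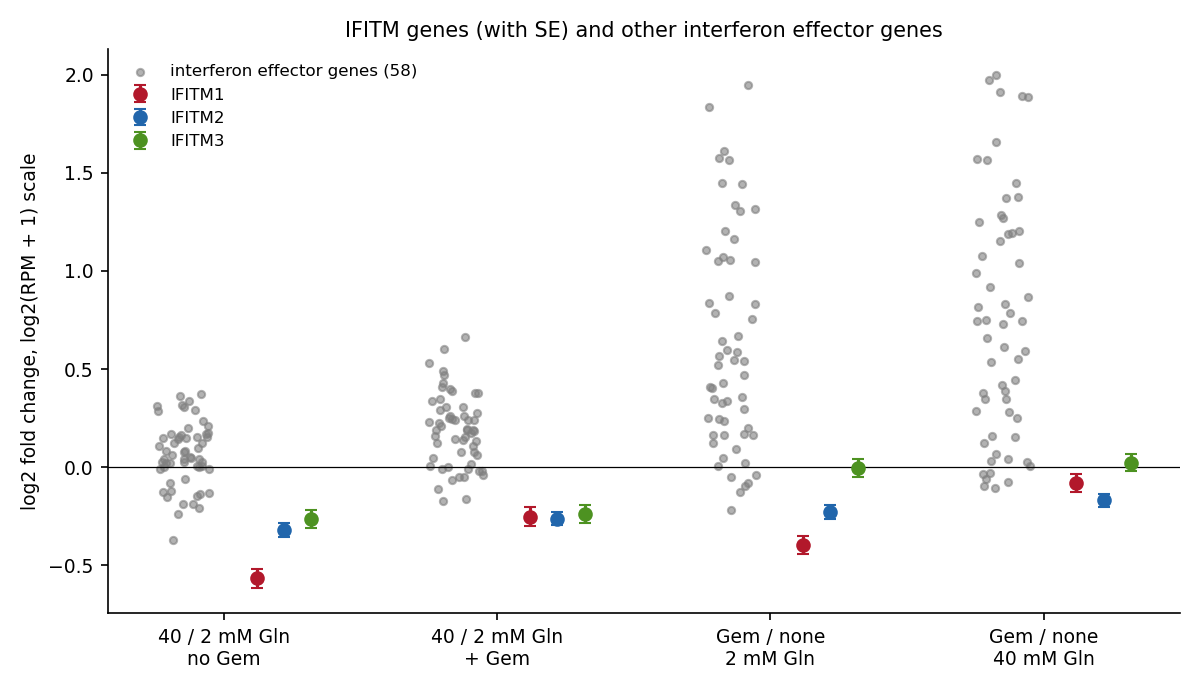
Log2 fold change on the log2(RPM + 1) scale (y axis) in 4 pairwise comparisons (x axis) for IFITM1, IFITM2 and IFITM3 (coloured points, bars are SE) and for 58 other interferon effector genes (grey points). The effectors reach about 2 with gemcitabine while IFITM1 and IFITM2 stay below 0, at -0.39 and -0.23 at 2 mM.

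Of the pathway above the members, ligands were scarcely seen and few factors moved far. Among 8 interferon ligand genes only IFNL1 was listed, at no more than 0.587 RPM, and none was tested. Of the 22 tested ligand, receptor and signalling genes, gemcitabine raised 4 and lowered 3 at 2 mM and raised 7 and lowered 2 at 40 mM, with a median of 0.02 to 0.03. At 2 mM these shares, 18.18% and 13.64%, were near the 17.5% higher and 17.1% lower of all tested genes. At 40 mM 31.82% of the 22 rose and 9.091% fell, against 14.1% and 16.2% of all tested genes. IRF9, which gives ISGF3 its DNA contact, rose by 0.61 ± 0.079 with the drug at 40 mM (limma, adjusted p = 2.402e-07). STAT2, another subunit of ISGF3, had log2 fold changes of -0.14 and -0.10 with the drug at 2 and 40 mM, and the first passed (limma, adjusted p = 0.03703) but not without any 1 of 5 of the 6 libraries compared, at adjusted p up to 0.128. IRF1, a factor that also binds ISREs, rose by 0.34 ± 0.073 with glutamine in the absence of the drug and by 0.37 ± 0.073 with the drug at 2 mM (limma, adjusted p = 0.0009686 and 0.0001165). STAT3, a factor of cytokine signalling, fell by 0.18 and 0.22 with the drug at 2 and 40 mM.

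Of 22 tested genes that modify, bind or traffic IFITM proteins, gemcitabine raised 6 and lowered 3 at 2 mM and raised 2 and lowered 5 at 40 mM. For 40 mM against 2 mM glutamine, 1 rose and 5 fell with the drug, and 6 rose and 1 fell without it. With 22 genes each share rests on few genes. With the drug at 2 mM 27.27% rose and 13.64% fell, against 17.5% and 17.1% of all tested genes. At 40 mM 9.091% rose and 22.73% fell, against 14.1% and 16.2%. For glutamine with the drug 4.545% rose and 22.73% fell, against 8.62% and 13%. For glutamine without it 27.27% rose and 4.545% fell, against 8.41% and 9.12%. CAV1, the coat protein of caveolae, which has been found with IFITM1, fell in all 5 pairwise comparisons. It averaged 149 RPM at 40 mM with gemcitabine, 188 RPM at 2 mM with gemcitabine, 174 RPM at 40 mM without the drug and 226 RPM at 2 mM without it. Its log2 fold change was -0.38 ± 0.033 for glutamine without the drug and -0.26 ± 0.033 for the drug at 2 mM (limma, adjusted p = 2.459e-10 and 1.077e-07). CD9, a tetraspanin of the plasma membrane, rose by 0.23 and 0.17 with the drug at 2 and 40 mM. AP2A1, a subunit of the AP-2 adaptor that draws IFITM3 into endocytosis, fell by 0.19 and 0.23 with the drug at 2 and 40 mM. ZMPSTE24, a protease that works beside IFITM proteins against viruses, rose by 0.18 ± 0.039 with the drug at 2 mM (limma, adjusted p = 0.0006177).

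The ISRE cores were also counted in other tested genes. Only the members were left out, so effectors counted above can be among these genes, and the counts are not independent of theirs. Apart from the members, 28 tested genes with a RefSeq promoter held 2 or more cores, and gemcitabine raised 14 and lowered 2 of them at 2 mM and raised 13 and lowered 3 at 40 mM. For 40 mM against 2 mM glutamine, 10 rose and 1 fell with the drug, and 5 rose and 2 fell without it. Among all 9856 tested genes with a RefSeq promoter, 18.39% rose and 17.67% fell in the 2 mM drug comparison, 14.62% and 17.12% in that at 40 mM, 9.081% and 13.37% for glutamine with the drug, and 8.939% and 9.142% for glutamine without it. The 262 genes with 1 or more cores were closer to these shares. Of them 25.19% rose and 14.89% fell in the 2 mM drug comparison, 22.9% and 12.6% in that at 40 mM, 9.924% and 12.21% for glutamine with the drug, and 8.015% and 8.779% for glutamine without it.

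The genes most like each member were named by the smallest root mean square difference of centred log2 levels over the 12 libraries, among 6392 tested genes at or above the median level. For IFITM1 they were PLAC8, RHBDF2, PRRX2, EML2 and CAV1, at 0.0836 to 0.110, where the IFITM1 profile itself varied by 0.256. For IFITM2 they were RHBDF2, MARK4 and DGKD, at 0.0379 to 0.0484, and for IFITM3 SNRPE, FLYWCH1 and SHC1, at 0.0528 to 0.0594. None of these 10 genes belongs to the effector list. IFITM2 was in place 7 of 6394 for IFITM1 and IFITM3 in place 291. For IFITM2, IFITM1 was in place 339 and IFITM3 in place 910. For IFITM3, IFITM2 was in place 1654 and IFITM1 in place 4243. PLAC8, a small cysteine-rich protein, averaged 38.2 RPM at 40 mM with gemcitabine, 50.2 RPM at 2 mM with gemcitabine, 44.0 RPM at 40 mM without the drug and 60.4 RPM at 2 mM without it. RHBDF2, an inactive rhomboid that escorts ADAM17, averaged 37.5, 45.3, 42.6 and 53.4 RPM in the same order. With Pearson's correlation as the measure, all of the named genes remained within the top 50 for their member. The nearest genes themselves depended on the measure. By correlation they again held 2 of the 5 named for IFITM1, 0 of the 3 for IFITM2 and 1 of the 3 for IFITM3. EIF1 came first for IFITM1, CAV1 for IFITM2 and SNRPE for IFITM3. The likeness is a description over 12 libraries that share 4 conditions.

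**Figure D5:**
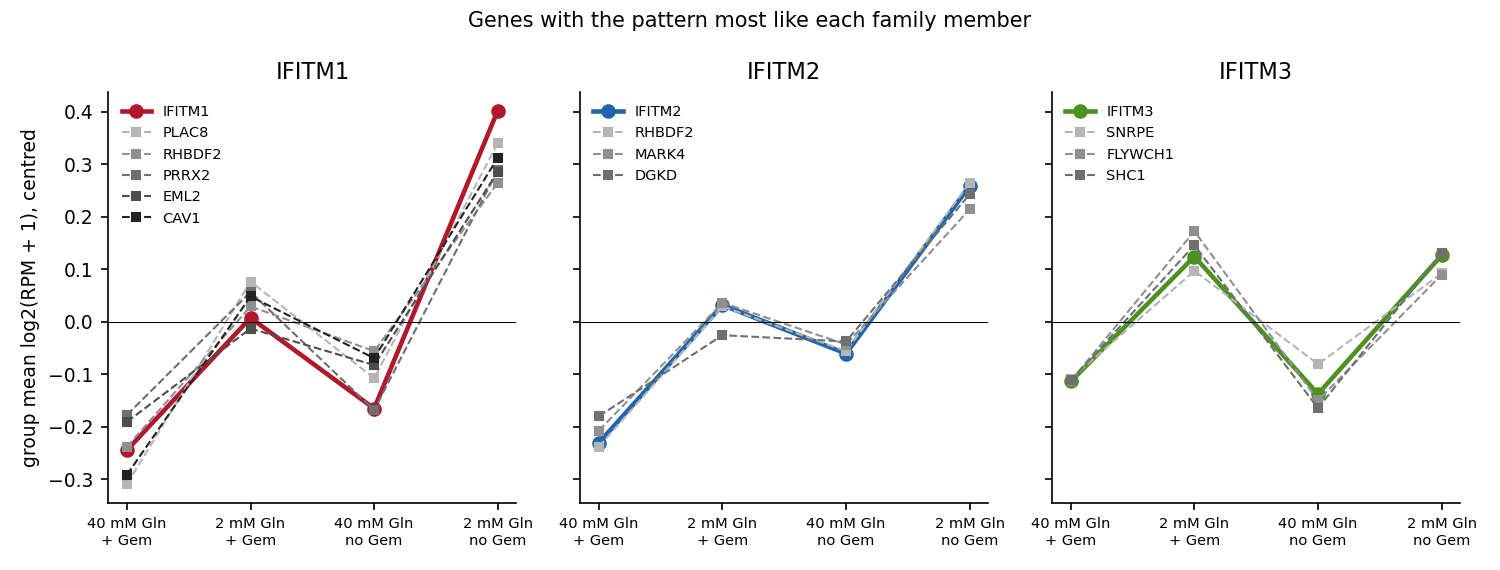
Group means of log2(RPM + 1), centred on each gene's own mean (y axis), for each member (coloured) and the genes most like it (grey, dashed) in the 4 groups (x axis, which has no natural order along the lines). For IFITM3 and its 3 nearest genes the 2 mM groups are high and the 40 mM groups low with or without gemcitabine, whereas for IFITM1 the untreated 2 mM group stands alone at the top.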

How the data were processed

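MIA PaCa-2 RNA was sequenced in 12 libraries, and per the labels RNA came from a column kit and libraries from a sequencing company. The deposited log2 values, for 15090 gene symbols, equal log2 of RPM plus a pseudocount of 1. In each library 100% of values were whole reads within 0.05 read, so reads could be recovered. For the aligner, annotation, genome build and strandedness the sources used here give nothing.

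Genes with at least 1 RPM in at least 3 libraries (12789) entered limma 3.58.1 (R 4.3.3) with 4 group means, a mean-variance trend and Benjamini-Hochberg adjustment over all tested genes, two-sided, with a threshold of 0.05. Fold changes are on the log2(RPM + 1) scale. Because the deposited unit is log2, count models were not run, and voom weights on recovered reads (in limma) were an alternative, as were other filters, pseudocount 0.1, other scalings, a replicate block and leaving out each library. The fit was tested on simulated data. Replicates differed beyond sampling noise (chi-square per degree of freedom 2.35 to 5.33).

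Members, gene lists and tests were chosen with earlier results of these data known. Named genes are the members and listed relatives, the genes most like each member, per pairwise comparison up to 4 effectors with the largest change along the list's median and up to 4 called against it, the 4 pathway and partner genes with the smallest p in each list and fixed signalling genes, and the 5 neighbours on each side.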

Additional observations from a re-analysis of the deposited data

Results flagged for a closer look

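The response to gemcitabine differed between glutamine levels in 3 named interferon effectors, by the interaction in limma. Among all 58 tested effectors 3 were called higher (5.172%) and 2 lower (3.448%), against 0.727% and 1.47% of all tested genes. Their interactions ran from -0.1948 to 0.4821, so the largest lies outside the 3 described here. IFIT1 rose more with the drug at 40 mM, with an interaction of 0.4132 on the log2 scale (SE 0.060, adjusted p = 0.0001119). DDX60, a helicase of the antiviral response, had an interaction of 0.4593 (SE 0.116, limma adjusted p = 0.02636), and 7 of the 12 fits that left out 1 library lost the call, at adjusted p up to 0.11. TRIM25, a ubiquitin ligase of RNA sensing, had an interaction of -0.1948 (SE 0.047, limma adjusted p = 0.01836), and it lost the call with quantile normalization and with library totals alone, at adjusted p of 0.1121 and 0.06053. It was also lost without replicate 3 of the untreated 2 mM group, replicate 1 or 2 of the 2 mM group with gemcitabine or replicate 1 of the 40 mM group with gemcitabine, at adjusted p of 0.0507 to 0.0575. IFITM2 and IFITM3 had no called interaction, and the one of IFITM1 was not tested.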

How the results depend on the processing

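Over 9 other settings and 12 fits that each left out 1 library, IFITM2 and IFITM3 kept their direction and their side of the threshold in every comparison where they were called, with adjusted p of at most 0.00404 for IFITM2 and 0.00512 for IFITM3. The uncalled drug changes of IFITM3 took either sign, from -0.0356 to 0.0212 at 2 mM and from -0.0212 to 0.101 at 40 mM without 1 library, and never passed. IFITM1 kept its direction throughout. Its log2 fold change ranged from -0.601 to -0.506 for glutamine without the drug, from -0.423 to -0.366 for the drug at 2 mM and from -0.14 to -0.0363 for the drug at 40 mM without 1 library. The sum of IFITM2 and IFITM3 ranged from -0.0895 to -0.0322 for the drug at 40 mM without 1 library. The number of genes called in the interaction was 281, and ranged from 155 to 366 without 1 library, with fewer samples in each such fit.

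The replicate numbers did not pair the samples: in 18 pairs with the same number the correlation of deviations ran from -0.0768 to 0.048, and 8 of 18 were best with their own number. A fit with the replicate block called 306 genes in the interaction and changed no call of IFITM2 or IFITM3. The interaction could not be fitted on only the groups compared. Among 324 results of other named genes, 6576 of 6726 recomputed values kept the call, 117 lost it, 33 gained it and 0 turned round. Depth limits IFITM5, with at most 28 reads per library.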

Other observations

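Of 9 tested neighbours of the family on chromosome 11, counted as 5 on each side of the members in RefSeq order with IFITM5 among them, none passed the limma test for 40 mM against 2 mM glutamine without gemcitabine, where IFITM2 and IFITM3 fell. At an unadjusted p under 0.05, 1 of them was lower, and voom weights called that 1. It was SIGIRR, which passed as well with the replicate block, with only the groups compared and without replicate 2 of the 2 mM group with gemcitabine, at adjusted p of 0.0396, 0.0223 and 0.022. For 40 mM against 2 mM glutamine with gemcitabine, where IFITM2 and IFITM3 also fell, 0 rose and 2 fell. That was 22.22% of the 9, against 13% of all tested genes called lower. For gemcitabine against none at 2 mM, 2 rose and 5 fell. At 40 mM none rose and 3 fell, with 1 higher at an unadjusted p under 0.05 and 0 by voom. Of all tested genes 17.5% were higher and 17.1% lower at 2 mM, and 14.1% and 16.2% at 40 mM. The 2 that rose at 2 mM, 22.22% of the 9, are near that share. The falls were 55.56% of the 9 at 2 mM and 33.33% at 40 mM. SIGIRR, which damps interleukin-1 receptor signalling, averaged 3.52 RPM with the drug and 7.46 RPM without it at 2 mM (log2 fold change -0.94 ± 0.161, limma adjusted p = 1.903e-05). NLRP6, an innate sensor, averaged 4.003 RPM with the drug and 7.11 RPM without it at 2 mM (log2 fold change -0.69 ± 0.128, limma adjusted p = 5.946e-05). B4GALNT4, a glycosyltransferase gene next to IFITM3, fell by 0.17 and 0.25 with the drug at 2 and 40 mM. PSMD13, a proteasome subunit, rose by 0.22 ± 0.035 with the drug at 2 mM (limma adjusted p = 9.667e-06).

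A set of 7 interferon genes known as a DNA damage resistance signature, which overlaps the effector list and holds no IFITM gene, had 6 members called higher with gemcitabine at 2 mM and 7 at 40 mM. Of all tested genes 17.5% and 14.1% were called higher. The median log2 fold changes of the 7 were 1.31 and 1.38, against -0.0011 and -0.0054 over all tested genes.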
